A study of Mus musculus with 21 samples.

Results

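The 1925 sites described here are coding single-nucleotide variants (SNVs) that were listed in each of 7 mouse tumours and that carry an identifier of dbSNP, the public catalogue of known variants. A site was a member if it stood in the SNV lists of all tumours except T-LCDM-P9 replicate 2, had that identifier and was annotated as missense, synonymous, stopgain or stoploss. The 1925 members are part of 7639 sites common to the 7 tumours, of 15030 distinct sites over all 8 tumour lists and of 19181 distinct sites in the 18 SNV lists of the series. Another 541 coding dbSNP sites were listed in 1 to 6 of the 7 tumours, and T-LCDM-P9 replicate 2 listed 985 coding dbSNP sites, members included. The members were thus chosen by the calls themselves, which rest on the alternative reads of each tumour and of the control. Their number, the level of their allele fractions and the reads of the control are therefore given as descriptions. The one test is of differences in allele fraction among the 7 tumours.

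The study followed genome stability in mouse embryonic stem cells (ESCs) kept in different media, and in tumours of mice derived from such cells by tetraploid complementation, a method that lets injected ESCs form the body of the embryo. All samples, the blood control included, carry the strain label C57BL6X129S6F1, a cross of the C57BL/6 and 129 laboratory strains. The tumours are named for the medium of the ESCs. T-2iL-P9 (1 tumour) stands for serum-free N2B27 medium with leukaemia inhibitory factor (LIF, 1000 IU), the kinase inhibitors CHIR99021 (3 µM) and PD0325901 (1 µM) and feeder cells. T-A2iL-P9 (3 tumours) and T-A2iL-P14 (1 tumour) had LIF (1000 IU), CHIR99021 (3 µM) and CGP77675 (1.5 µM) on feeders. T-LCDM-P9 (2 tumours) had LIF (1000 IU), CHIR99021 (3 µM) and the additives written Dim and Mih (2 µM each) on feeders. T-2iL-F-P9 (1 tumour) had the 2iL medium without feeders. The media of all these tumour groups were free of serum. The labels explain neither P9 and P14 nor the tissue in which a tumour arose. Most groups hold a single tumour, so the values below compare libraries and not media. The sample names inside the lists of T-2iL-P9 and T-2iL-F-P9 differ from the labels, and an exchange of these 2 tumours cannot be told apart from the order recorded. The series title names exome sequencing and its design text names ATAC-seq for the tumours, so these 2 texts do not settle the assay. The protocols name genomic DNA and Agilent SureSelect primers. Of the 7639 sites common to the 7 tumours, 25.8% were exonic, 63.9% intronic and 1.91% intergenic.

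Laboratory mouse strains differ at many single bases, and an animal with parents of different strains is heterozygous at such sites, so that reads of both alleles are expected in about equal numbers. A synonymous variant leaves the amino acid as it is, a missense variant exchanges it, and a stopgain or stoploss variant shortens or lengthens the protein. Selection removes many harmful missense and stop alleles from a population, and inherited coding variation is therefore usually richer in synonymous changes. Reads that carry the allele absent from the reference genome can align less well than reads that match it, which is known as reference bias and lowers the measured fraction of the alternative allele.

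Several properties of the lists bear on the members. Each tumour list held 9752 to 10325 sites, against 3634 in T-LCDM-P9 replicate 2, and the median depth at members was 39 to 52 reads in the 7 tumours. All lines were marked somatic against the same control, blood of a wild-type mouse. The series has 2 wild-type blood samples, and the name of the control in the lists does not settle which of them it was. At members the control had 0 alternative reads at 1066 sites (55.4%) and 1 alternative read at 859 (44.6%), and at no member more than 1. The median control depth was 44 reads (8 to 512), and the highest control fraction of a member was 0.0588. The share of members with 1 alternative control read was 0.895% below 25 control reads and 83.6% at 100 or more. Since every line was called against this control, sites with more alternative reads there could hardly be listed. That the control read almost only the reference base at members thus belongs to the selection. It says nothing about the strain of the control, whose label is the same as that of the tumours. None of the 10 ESC lists held a member, and no call in those lists carried a dbSNP identifier. Whether the members were inherited was not tested, because no parental genotype was used.

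The base read at a member can be shown for 5 sites that lie in the RefSeq promoter window of their own gene, which reaches past an annotated start of transcription. The reference base of all 84 shared sites in such windows, 9 members among them, was the same in the RefSeq table (GRCm38.p6) and in the lists. The 29 bases around each of the 5 sites are given on the strand of the gene, with the reference base of the member in capitals.
Vmn1r13: ctttattttcaagctgggcttggattcAt
Vmn1r167: gtgatgattattccGttgtctaatgaagt
Pnpla6: agtccgaaacaatcGatggaggccccact
Timm44: gcggcggcagctctgcggggTggctggtg
Plet1: ccaaacagcccgggaccatgctgTcgctc
Changes in coding DNA are counted from the first base of the start codon. In Vmn1r13, a vomeronasal pheromone receptor gene, A49C exchanges an amino acid (I17L, chr6:57209879-57209907), and its fraction ran from 0.226 over a median of 0.400 to 0.421 in the 7 tumours. Vmn1r167 of the same family had the silent G12A (chr7:23505564-23505592, minus strand) at 0.377, 0.494 and 0.593 as the lowest, median and highest fraction. In Pnpla6, which encodes a phospholipase of neurons, the silent G66A (chr8:3516708-3516736) ran from 0.341 to 0.563. Timm44, for a subunit of the mitochondrial protein import motor, had the silent T24C (chr8:4275856-4275884, minus strand) at 0.455 to 0.700. In Plet1, for a surface protein of placental and epithelial progenitors, T7G lies in the third codon and gives S3A (chr9:50494546-50494574), at 0.360 to 0.619. The rule requires the alternative allele in every tumour, and the reference allele was read there as well at all 5 sites. Of these sites 1, in Timm44, averaged above 0.5 (0.571 ± 0.0885, SD, n = 7).

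Synonymous changes outnumbered missense changes. The members comprised 546 missense, 1377 synonymous, 2 stopgain and 0 stoploss sites. The ratio of missense to synonymous sites was 0.397, with a 95% Wilson interval of 0.359 to 0.438. This interval, like the others given for shares, covers counting error only, and linked sites are not independent draws. The coding dbSNP sites listed in 1 to 6 of the 7 tumours had 159 missense and 380 synonymous sites, a ratio of 0.418 (0.348 to 0.503) that overlaps the members'. The 905 sites of T-LCDM-P9 replicate 2 that were not members had a ratio of 0.472 (0.411 to 0.543). Within each of the 7 tumours, the ratio over all coding dbSNP sites lay between 0.391 and 0.402.

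The ratio moved with the kind of sequence. The 70 members in segmental duplications or repeats had 34 missense and 36 synonymous sites, a ratio of 0.944 (0.594 to 1.50). The 1855 members elsewhere had a ratio of 0.382 (0.345 to 0.423), and these intervals did not overlap. Coding sites common to the 7 tumours but without a dbSNP identifier numbered 45, with 20 missense, 23 synonymous and 2 stopgain sites (ratio 0.870, 0.482 to 1.57). Among members the ratio was 0.349 at the 641 sites of lowest mean depth (6.43 to 33.4 reads), 0.397 at the next 642 and 0.447 at the 642 sites of highest mean depth (54.9 to 424 reads), with overlapping neighbouring intervals. The part of depth in the ratio was not tested.

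**Figure D1:**
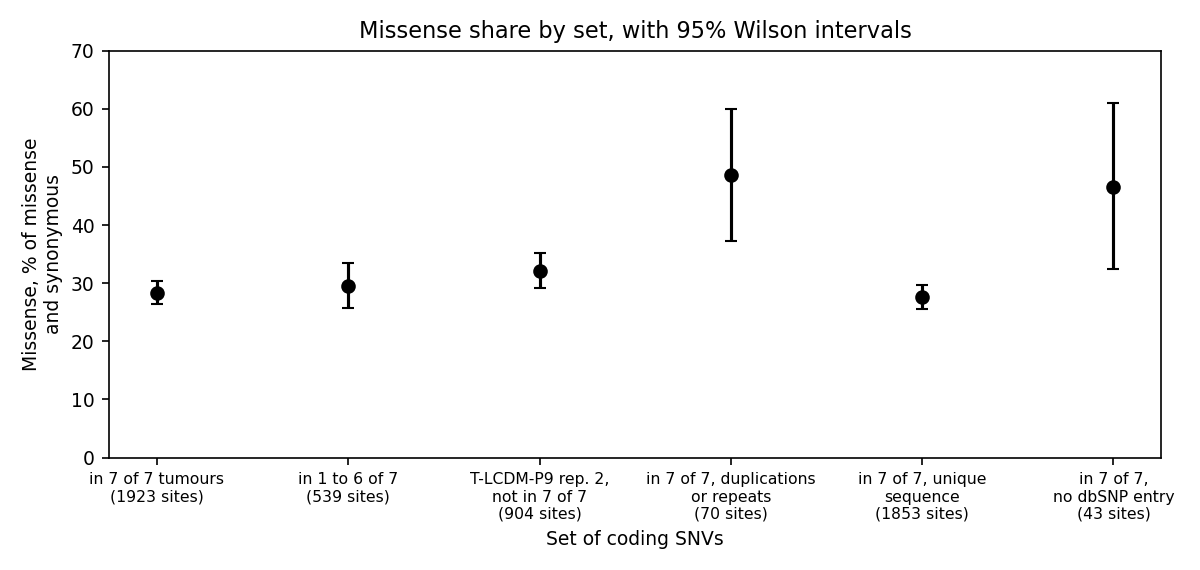
Missense sites as a percentage of missense and synonymous sites (vertical axis) in 6 sets of coding SNVs, with 95% Wilson intervals as bars. Members (28.4%) lie beside the sites in 1 to 6 tumours (29.5%), while members in duplications or repeats (48.6%) and shared sites without a dbSNP entry (46.5%) lie higher with wide intervals.

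On the BLOSUM62 scale, a score below 0 marks exchanges seen less often between related proteins than chance would give. Of the missense members, 352 of 546 (64.5%) scored at least 0 and 105 (19.2%) scored -2 or less. In the missense dbSNP sites of 1 to 6 tumours these shares were 60.4% and 18.9%. Transitions, the exchanges within purines or within pyrimidines, made up 78.4% of members. They made up 67.9% of missense and 82.6% of synonymous members.

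Both stop changes among members were annotated as stopgain. No protein lengths were available. How much of a protein a stop would remove is therefore not given, here and for the stops outside the rule. Herc6 encodes the main ligase that attaches the interferon-induced modifier ISG15 in mouse. Its Q1002X (position 57662906 of chromosome 6, exon 23) had fractions of 0.413 in T-2iL-P9, 0.149, 0.364 and 0.213 in T-A2iL-P9 replicates 1, 2 and 3, 0.364 in T-A2iL-P14, 0.235 in T-LCDM-P9 replicate 1 and 0.286 in T-2iL-F-P9. The alternative reads behind these were 31 of 75, 7 of 47, 16 of 44, 13 of 61, 28 of 77, 12 of 51 and 14 of 49, and the control had 0 of 99. The stop was below 0.5 in all 7 tumours and averaged 0.289 ± 0.0957 (SD, n = 7). The missense member T997M of the same exon lies 14 bp away and averaged 0.304 ± 0.0687, and the missense member of exon 13, I543V, averaged 0.153 ± 0.0448. The other 6 Herc6 members averaged 0.420 to 0.471.

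Dok2 encodes an adaptor that restrains tyrosine kinase signalling in blood cells. Its K412X (position 70778068 of chromosome 14, exon 5) had fractions of 0.455 in T-2iL-P9, 0.553, 0.444 and 0.462 in T-A2iL-P9 replicates 1, 2 and 3, 0.529 in T-A2iL-P14, 0.556 in T-LCDM-P9 replicate 1 and 0.385 in T-2iL-F-P9. The mean was 0.483 ± 0.0642 (SD, n = 7), with values on both sides of 0.5, and the control had 0 of 38 alternative reads. Neither stop was listed in T-LCDM-P9 replicate 2.

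Stop changes just outside the rule were few. Mroh2a W462X and the stoploss Vmn2r79 X852L, of a vomeronasal receptor, had a dbSNP identifier and stood in 6 of the 7 tumours, the first at 0.043 to 0.065 and the second at 0.417 to 0.581. Gpx6 Q217X, in a glutathione peroxidase of the olfactory epithelium, and Sub1 R47X, in a transcriptional coactivator, stood in all 7 tumours without an identifier. Sub1 R47X was also listed in T-LCDM-P9 replicate 2. Gpx6 Q217X had fractions of 0.333 to 0.567, and Sub1 R47X, with that tumour included, of 0.154 to 0.346. These 4 stop changes were chosen after their values were seen. The threshold of the rule also separated sites by support. The 178 coding dbSNP sites in 6 of the 7 tumours had a median fraction of 0.333 and a median depth of 20 reads, against 0.441 and 42 reads for members.

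The members fell in 1136 genes, of which 716 held 1 member and 440 at least 1 missense member. Of these, 362 held 1 missense member, 58 held 2 and 20 held 3 or more. Cep164, a centriole protein needed for building cilia, had most, with 6 missense and 5 synonymous members on chromosome 9. Its changes were S1176Y, S1176T, I1068N, R727W, Q664R and A289G. Of these, I1068N and R727W had a BLOSUM62 score of -3. Mean fractions of the Cep164 members ran from 0.252 ± 0.0725 (S1176Y) to 0.564 ± 0.0963 (the silent change at S318). S1176Y and S1176T are adjacent bases of 1 codon that the annotation treats singly, so the residue that would result on 1 chromosome is not given by it.

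Herc6 followed with 5 missense members (S20G, T198M, H366R, I543V and T997M) beside its stop. Erich5, Alpk1 and Itgad had 4 each. Alpk1 encodes a kinase that senses bacterial sugar metabolites, and its C745F (0.190 ± 0.0280) and S279A (0.276 ± 0.0517) had low fractions, while the silent L121L averaged 0.465. Itgad encodes an integrin chain of leukocytes and had V80M, G683R, N819D and T1075I. Another 15 genes had 3 each, of which the 7 with most members in all, ties taken by symbol, were Akap6, a kinase anchor of the nuclear envelope in muscle, Lama3, a laminin chain of epithelial basement membranes, Dzip1, a ciliary protein of Hedgehog signalling, Ccdc144b, Ceacam20, an adhesion molecule of the gut, Amph, which acts in synaptic vesicle recycling, and F830016B08Rik. The 4 members of F830016B08Rik all lay in segmental duplications or repeats and averaged 0.213, so reads of a near-identical copy cannot be told apart there. Ccdc144b averaged 0.269 outside such sequence.

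Some genes with many members had few missense changes or none. Pdzd2 had 10 members, 2 of them missense, and Col4a1, for a chain of basement membrane collagen, had 8 with 1 missense (P804T). Dscaml1, for a neuronal adhesion molecule, and Dst, for a cytoskeletal linker, had 8 synonymous members each and 0 missense. In 4 genes a pair of members lay in 1 codon at adjacent bases: Cep164, Pdzrn3 (V912V and V912A), Slc22a16 (K642E and K642R) and Tanc1 (S405N and S405S). In Pdzrn3 both averaged 0.449, and in Tanc1 0.395 and 0.415.

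Gene families differed in how many members they held. Over all 21887 protein-coding genes of the RefSeq table, 5.19% held a member. Olfactory receptors held 13 members in 10 of 1110 genes (0.901%), 8 missense and 5 synonymous. Vomeronasal receptors held 16 in 11 of 355 genes (3.10%), 9 missense and 7 synonymous, and 5 of the 16 lay in segmental duplications. The MHC genes with H2 symbols held 5 in 4 of 38 genes, 3 of them missense. The joint list of interferon-inducible Ifi genes and Nlrp genes held 8 in 6 of 50 genes, 4 missense and 4 synonymous. All 8 lay in Nlrp genes, and 3 of the 8 lay in segmental duplications. In these 4 families missense members were as many as or more than synonymous members, whereas over all members the ratio was 0.397. The counts are small and were not tested.

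Among the olfactory receptors, Olfr294 L317Q averaged 0.515 ± 0.0517 and Olfr916 D296G 0.488 ± 0.0943. Olfr723 G19R, in a segmental duplication, averaged 0.0773 ± 0.0209. Of the vomeronasal receptors, Vmn1r10 I307F averaged 0.519 ± 0.0999 in a segmental duplication, Vmn1r15 P18A 0.261 ± 0.0667 and Vmn1r172 V148F 0.131 ± 0.0197. The MHC changes H2-M10.4 R19L and T172K and H2-M5 G200R averaged 0.483, 0.465 and 0.518. Nlrp9b L12P, in an inflammasome gene, averaged 0.300 ± 0.0675, and Nlrp12 N972S and E867K averaged 0.504 and 0.515.

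The remaining symbol families with members, serpins excepted, had more synonymous than missense members. Solute carriers held 39 members in 24 of 389 genes, 12 missense and 27 synonymous. The list goes by symbol and so counts Slc4a1ap, an adaptor protein that is no carrier, with 4 members, 3 of them missense. Slc25a34 D211Y (0.412 ± 0.124) and Slc4a1ap P197L (0.464 ± 0.0703) had the lowest BLOSUM62 score, -3, and Slc10a2 F178I, in the bile acid transporter of the ileum, averaged 0.424. The zinc finger Zfp genes held 37 in 21 of 397 genes, 14 missense and 23 synonymous, with Zfp526 H303L at 0.432 ± 0.128, Zfp111 E189G at 0.387 and Zfp286 T60M at 0.508. Collagens and laminins held 23 in 4 of 55 genes, 5 missense and 18 synonymous, Col4a1 P804T averaging 0.4997 and Lama3 V3077A and V1849M 0.486 and 0.438. Protocadherins held 5 synonymous members and 0 missense in 3 of 69 genes. Cytochromes P450 held 7 in 5 of 99 genes, 3 missense and 4 synonymous, with D192N in Cyp2g1 at 0.477, S64T in Cyp2j13 at 0.629 and R434K in Cyp11b1, a steroid hydroxylase of the adrenal, at 0.494. Keratins and keratin-associated proteins held 4 in 4 of 109 genes, with Krtap19-3 P21L at 0.501. Serpins held 1, Serpinb8 A75T at 0.476, and mucins 0 in 12 genes.

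Genes of genome maintenance carried several of these variants. The list of DNA repair and checkpoint genes held 16 members in 8 of 33 genes, 6 missense and 10 synonymous. This is 24.2% of its genes, against 5.19% of all protein-coding genes. Gene length was not taken into account, here or for the families above, and the difference was not tested. Palb2 P314L, in the partner of BRCA2 in recombination repair, had fractions of 0.372 to 0.559 and a mean of 0.477 ± 0.0679 (SD, n = 7). Ercc5 T799S, in a nuclease of nucleotide excision repair, averaged 0.359 ± 0.0590. The list of tumour suppressors and oncogenes held 1 synonymous member, in Kmt2c, among 25 genes (4%). Of 14 genes used for coat colour or strain typing, 3 held a member (21.4%). In Nlrp1a, an inflammasome sensor, R1030Q averaged 0.416 ± 0.0869. In Naip5, a flagellin sensor that lies in a segmental duplication, E1069D averaged 0.117 ± 0.0145 at 278 to 383 reads.

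The alternative allele was read less often than the reference allele. Equal numbers of reads of both alleles give a fraction of 0.5. The median over members was 0.443 in T-2iL-P9, 0.441, 0.446 and 0.440 in T-A2iL-P9 replicates 1, 2 and 3, 0.447 in T-A2iL-P14, 0.436 in T-LCDM-P9 replicate 1 and 0.439 in T-2iL-F-P9. The mean of these medians was 0.442 ± 0.00390 (SD, n = 7), a shortfall of 0.0583 from 0.5. The SDs over tumours come from repeated readings of the same members and leave out variation between sites. In each tumour 67.3 to 71.6% of the members lay below 0.5 and 23.5 to 26.4% above it. Over the 7 tumours 474 members were below 0.5 in all and 5 were above 0.5 in all. Missense members had a mean median of 0.441 and synonymous members of 0.442, a difference of -0.00107 ± 0.00760 (SD, n = 7), smaller than the spread between tumours.

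**Figure D2:**
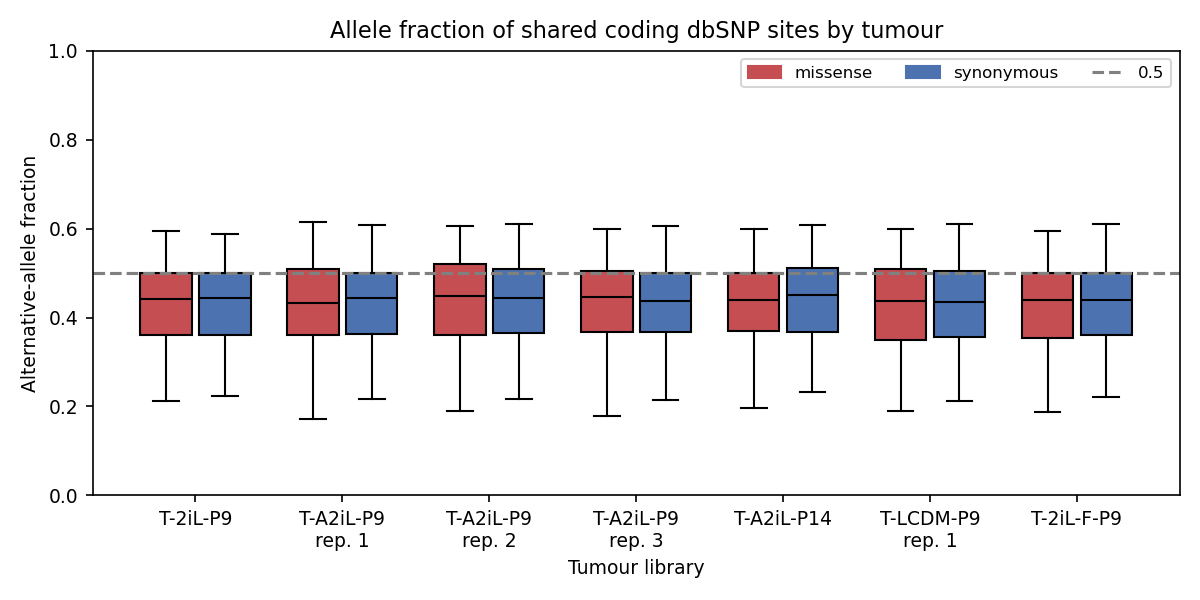
Alternative-allele fraction (vertical axis) of missense (red) and synonymous (blue) members in each of the 7 tumours. Boxes span the quartiles with the median as a line, whiskers span the 5th to 95th percentile, and all 14 medians, 0.432 to 0.450, lie below the dashed line at 0.5.

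The fraction was partly a property of the site. Between pairs of tumours the fractions of the 1925 members had a Pearson r of 0.455 to 0.566 over the 21 pairs, with a median of 0.5002, where the points share the alignment method and the control. The mean over the 7 tumours lay between 0.35 and 0.55 at 1582 members (82.2%) and below 0.25 at 119 (6.18%). The lowest was Psg23 T37T, in a pregnancy-specific glycoprotein gene within a segmental duplication, at 0.0506 ± 0.00768. Outside segmental duplications and repeats, Ptpdc1 A589E was lowest at 0.0891 ± 0.0241. The highest mean was 0.647 ± 0.154, at a silent site of Hist2h2aa1, a histone gene annotated together with its near-identical copy Hist2h2aa2, at 15 to 21 reads. Psg23, Ptpdc1 and Hist2h2aa1 were picked for their extreme values.

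Members close to another shared SNV had lower fractions. The 366 members with at least 1 other shared site within 50 bp had a median fraction of 0.388 ± 0.00813 (SD of 7 tumour medians), against 0.453 ± 0.00503 for the 1559 members without one. The difference was -0.0755 in T-2iL-P9 and -0.0605, -0.0735 and -0.052 in T-A2iL-P9 replicates 1, 2 and 3. In T-A2iL-P14 it was -0.061, in T-LCDM-P9 replicate 1 -0.072 and in T-2iL-F-P9 -0.056, lower in 7 of 7. The 7 tumours are repeated readings of the same sites, so these differences and SDs leave out variation between sites. The median depths were 46.3 reads with and 42 reads without a neighbour, and the part of alignment in the difference was not tested. With a window of 100 bp, the median was 0.458 with 0, 0.411 with 1 and 0.307 with 2 or more other sites. The 52 members in segmental duplications had a median of 0.3495 ± 0.0174 at a median depth of 74.6 reads. Members whose reference base was G or C and alternative A or T had 0.441, and those with the opposite exchange 0.445. The members without a neighbour within 50 bp were thus still below 0.5 in every tumour (0.446 to 0.462).

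**Figure D3:**
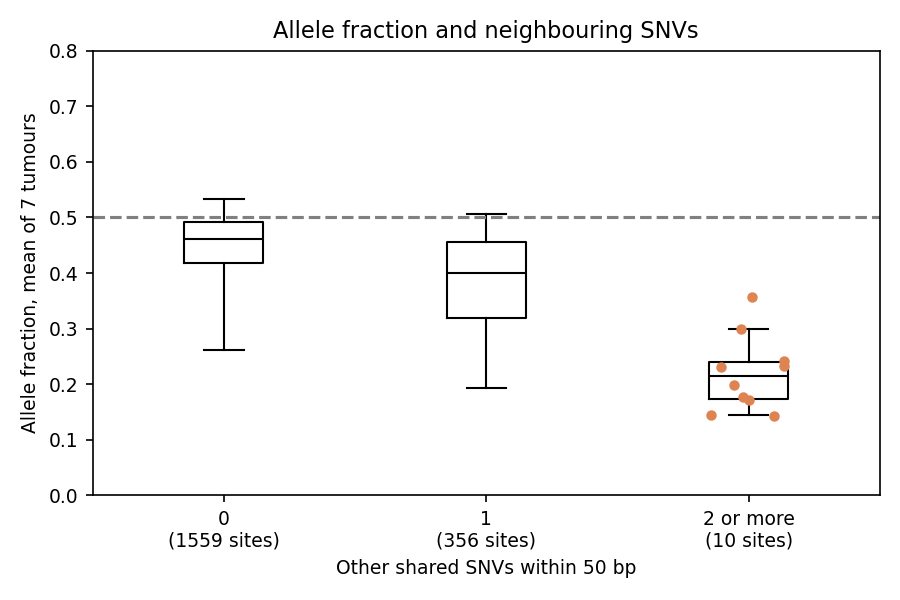
Alternative-allele fraction per member, averaged over the 7 tumours (vertical axis), by the number of other shared SNVs within 50 bp. Boxes span quartiles, whiskers the 5th to 95th percentile, points are the single members of the smallest class, and the dashed line is 0.5. The 1559 members without a neighbour lie highest and the 10 members with 2 or more lie lowest.

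The members were spread unevenly over the genome. Chromosome 7 held most (259), followed by chromosomes 4 (168), 9 (158) and 15 (151), while chromosomes 10 and 19 held 32 each, X held 2 and Y 0. Per 100 protein-coding genes, chromosome 15 had 19.5 members, chromosome 18 had 18.6 and chromosome 14 had 13.98, against 3.20 on chromosome 10, 3.67 on chromosome 11 and 8.80 overall. Among the 19 chromosomes with 20 or more members, the ratio of missense to synonymous members ran from 0.244 (0.124 to 0.481) on chromosome 12 to 0.595 (0.353 to 1.00) on chromosome 11, with overlapping intervals. On chromosome 4 it was 0.556 (0.406 to 0.761), an interval whose lower end lies above the ratio over all members. It was picked for this among the 19 intervals, which cover counting error only. The ratio over all members includes chromosome 4, and the difference was not tested.

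**Figure D4:**
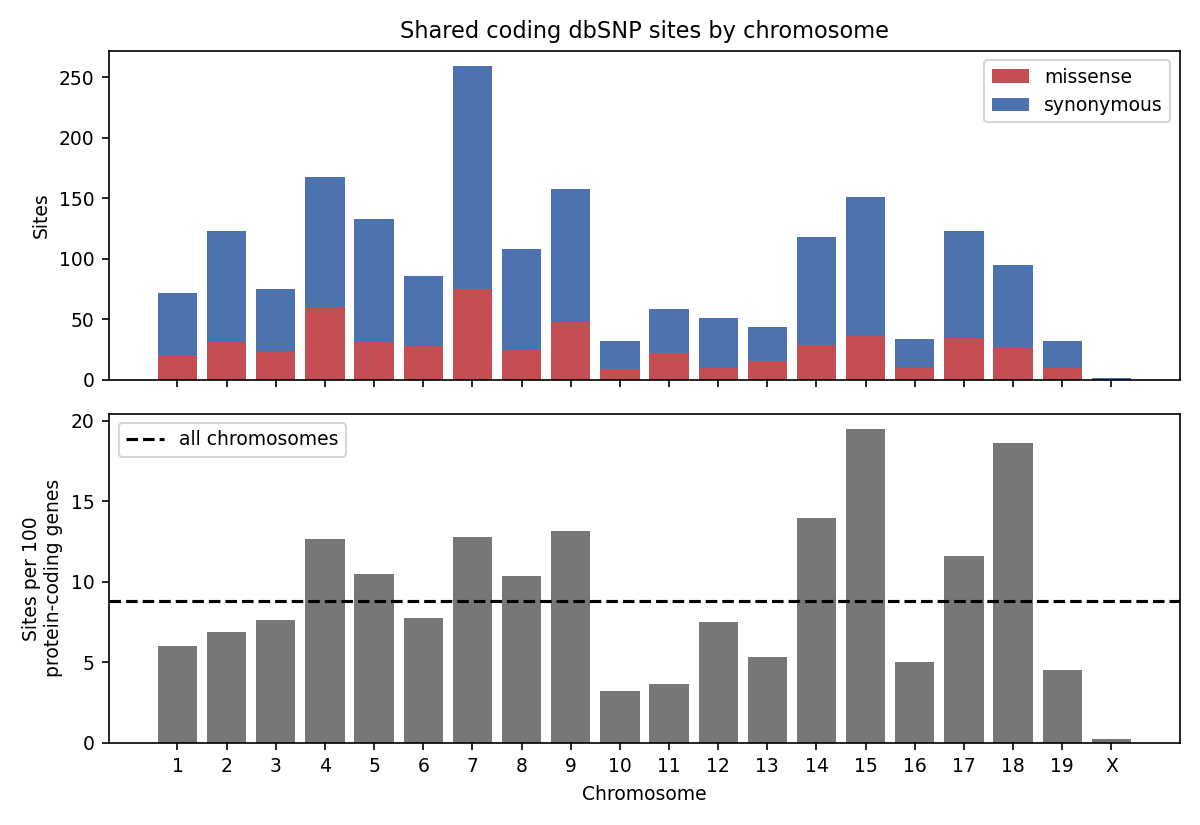
Number of missense (red) and synonymous (blue) members per chromosome (upper panel) and members per 100 protein-coding genes (lower panel, dashed line at 8.80 for all chromosomes). Chromosome 7 has the most members, and chromosomes 15 and 18 the most per gene.

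Within chromosomes the members were clumped. In bins of 10 Mb, 62 of 252 autosomal bins with 10 or more protein-coding genes held no member although they held 3874 genes. The 10 fullest bins held 537 members (27.9%) and 6.34% of the genes. The fullest were chromosome 7 from 10 to 20 Mb with 85 members in 41 genes, and chromosome 9 from 40 to 50 Mb with 77 members in 33 genes. Cep164 and Dscaml1 lie in the bin of chromosome 9. In contrast, chromosome 2 from 80 to 90 Mb had 247 genes, 0 members and 0 shared sites of any kind. Neighbouring members lay a median of 41862 bp apart. No member had more than 1 alternative read in the control, and read coverage per bin was not used. Full and empty bins, and the shares by gene family, thus describe listed sites and not strain variation as a whole.

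Whether the allele fraction at a member differed among the tumours was tested at each shared site, with a chi-square test of the alternative and reference reads over the 7 libraries and Benjamini-Hochberg adjustment over all 7639 sites. At an adjusted p under 0.05, 1 of the 1925 members was called, against 13 of all 7639 shared sites (0.17%) and 12 of the 5714 shared sites that are not members (0.21%). At an unadjusted p under 0.05 there were 93 members (4.83%) and the same percentage of other shared sites. The test therefore called few sites, and being listed in every tumour limits how low a fraction can be.

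The member called was the silent D94D of Gnat3 (position 17991439 of chromosome 5, exon 3), in the gene for gustducin, a G protein of taste cells. T-LCDM-P9 replicate 1 had 28 alternative reads at a depth of 335, a fraction of 0.084. The other 6 tumours had 43 of 81, 21 of 42, 24 of 57, 37 of 70, 29 of 68 and 28 of 51, fractions of 0.421 to 0.549 (chi-square adjusted p = 1.41e-25). The test takes reads as independent molecules and compares single libraries, so its p covers counting error only. The depth at Gnat3 in that tumour, relative to its own median over members, was 5.95 times the mean of the other 6. It was the only member with a relative depth at least 3 times that of the others in any of the 7 tumours. The nearest members, 2 in Speer4f1 at 511079 and 510961 bp and 1 in Magi2 at 1235957 bp, had relative depths of 0.929, 0.980 and 0.844 times the others on the same scale.

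Of the 13 called sites, 10 lay on chromosome 5, all farthest from the rest in T-LCDM-P9 replicate 1. Beside Gnat3 they were intronic sites of Abcb1b, a drug efflux pump gene, Cd36 (2 sites), a fatty acid receptor gene, Kit (5 sites), a receptor tyrosine kinase gene, and Tmem165. Their fractions there were 0.037 to 0.106, against 0.222 to 0.667 in the other 6 tumours, and their depth relative to the median over all shared sites was 5.47 to 9.46 times that of the others. These sites were named after their values were seen. Without T-LCDM-P9 replicate 1, 0 of 1958 members and 0 of 7858 shared sites were called by the chi-square test, with 79 members at an unadjusted p under 0.05. The members with the next lowest p, Mvk T72T in mevalonate kinase (unadjusted chi-square p = 0.00138, adjusted 0.557) and Ppp1r26 S235S (unadjusted 0.00253, adjusted 0.711), were not called.

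Taken over whole chromosomes, the same tumour stood apart on chromosome 2. Its median fraction over the 123 members there was 0.35, against 0.435 to 0.457 in the other 6 tumours (mean 0.449 ± 0.00802, SD), and its relative depth there was 1.26 times theirs. On chromosome 16, with 34 members, it had 0.378, against 0.450 ± 0.0212 in the other 6, with a relative depth of 1.23 times theirs. The other 131 of the 133 values per chromosome and tumour lay within 0.05 of the mean of the remaining tumours. No single member of chromosome 2 was called (background on that chromosome 0%), and 13 of its 123 members (10.6%) had an unadjusted chi-square p under 0.05, against 4.83% of all members. On chromosome 16 this was 0 of 34, and on chromosome 18, where no tumour stood apart, 8 of 95 (8.42%). A shared intronic site of Crybg3 on chromosome 16, not a member, was called (chi-square adjusted p = 0.0468). It was farthest in T-LCDM-P9 replicate 1, at 0.163 against 0.325 to 0.615 in the other 6. The called sites of Cldn10 (chromosome 14) and Slc45a2 (chromosome 15) were farthest in T-2iL-P9 and T-A2iL-P14. These sites were named after their values were seen.

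**Figure D5:**
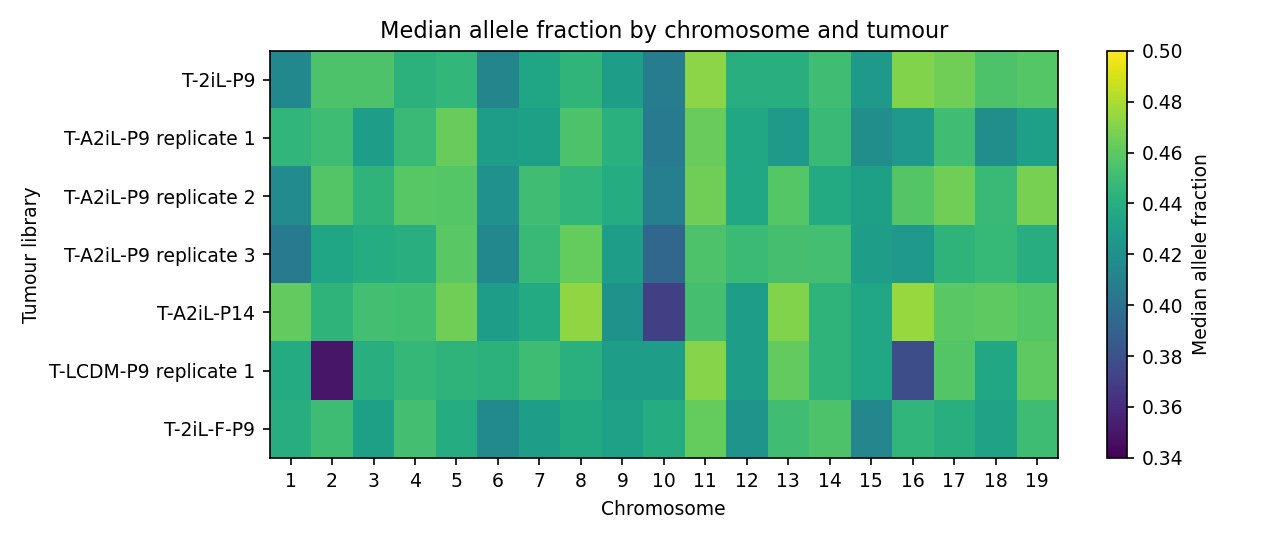
Median alternative-allele fraction of members (colour) by tumour (rows) and by chromosome (columns), for the 19 chromosomes with 20 or more members. The darkest cell is chromosome 2 of T-LCDM-P9 replicate 1 (0.35), and chromosome 16 of the same tumour (0.378) is dark as well.

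The tumour left out of the rule listed few of the members, and its reads at members that it did not list were not examined. T-LCDM-P9 replicate 2 listed 80 of the 1925 members (4.16%), against 288 of the 5714 other shared sites (5.04%), and these 80 were 8.12% of its 985 coding dbSNP sites. Of the 80, 24 were missense and 56 synonymous, a ratio of 0.429 (0.267 to 0.688). They were 25 of the 119 members of chromosome 14 (21.0%), 8 of the 32 of chromosome 19 (25%) and 20 of the 259 of chromosome 7 (7.72%). Their median fraction in that tumour was 0.480 (0.051 to 1) at a median depth of 45 reads, with 45 of 80 below 0.5. Averaged over the 7 tumours, the same 80 had a median of 0.473. In Pprc1, of mitochondrial gene regulation, and Tmc5, of a transmembrane channel-like family, 4 members each were listed there, genes chosen for this count.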

How the data were processed

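Libraries were made from genomic DNA with Agilent SureSelect primers, per the labels' protocols. Reads were processed by the authors with BWA, Picard and SAMtools on mm10 (submitters' processing notes), with the SNV caller not given in the sources used here. Each deposited line holds allele reads (counts), depth, base quality and the alternative-allele fraction of a tumour and its control in 1 genotype string, with consequence, dbSNP, duplication and repeat annotation, per the file headers. A fraction can differ slightly from alternative reads over depth. Sites were matched by chromosome, position and bases (mm10). Protein changes follow the first transcript listed. Named were all stops, the 12 genes with most missense members (ties by all members, then by symbol), the 3 members with lowest chi-square p outside duplications and repeats, and up to 3 missense members per gene list by lowest BLOSUM62 score. A site that this rule names is not reported here. Members and lists were chosen with earlier results of these data known. Of 1136 genes, 1084 were symbols and 48 synonyms in the RefSeq table. Python 3.11.15, SciPy 1.17.1 and pandas 2.3.3 were used, and the chi-square test was tested on simulated data. Alternatives covered depth, base quality, duplications, single tumours, all 8 tumours, autosomes, read weighting, the test and neighbouring SNVs. Replicates are separate tumours per the labels.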

Additional observations from a re-analysis of the deposited data

Results flagged for a closer look

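Of 25 measures compared over the 7 tumours (4 over all members, the missense to synonymous ratio over each tumour's own coding dbSNP sites, 19 chromosome medians and the difference between members with and without neighbours), 1 value lay far from the rest by Dixon's criterion, which chance meets in about 1 of 20 groups. It was the median alternative-allele fraction on chromosome 2 in T-LCDM-P9 replicate 1, at 0.35, against 0.435 to 0.457 in the other 6 tumours. Its gap to the nearest tumour was 0.794 of the whole range, above the critical value for 7 values. The relative depth of the members there was 1.26 times that of the other 6, and the part of a change in copy number was not tested.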

How the results depend on the processing

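The missense to synonymous ratio stayed within its Wilson interval in all 16 alternatives. Leaving out each tumour in turn gave 1936 to 1958 members, ratios of 0.395 to 0.398, median fractions of 0.440 to 0.442 and 0 to 1 members called, the 0 being without T-LCDM-P9 replicate 1. Requiring all 8 tumours left 80 members, a median fraction of 0.457 and 13 called members, where 97 of all 368 such sites were called. The median fraction was 0.438 with at least 20 reads in each tumour and 0.418 from summed reads. Settings added after seeing the data, which kept only members without another shared site within 25, 50 or 100 bp, gave 0.447, 0.453 and 0.458. All of these were below 0.5. No paired analysis was possible because most tumour groups hold 1 tumour and replicate numbers do not link tumours of different groups. Depth limits the test, since a member had a median of 39 to 52 reads per tumour. Linked sites are not independent, all fractions are conditional on a call in each tumour, and the lists share 1 control.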
